A study of Mus musculus with 5 samples.

Results

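Abcb1a was measured by 2 of the 19828 probes on each array, and is 1 of 8692 genes with a probe value on all arrays. Both probes, numbered 8070 and 8580 on the array, were assigned to Abcb1a alone and to the same RefSeq transcript by the annotation of the array platform. The gene was chosen by the measured changes of its probes over the time course, which were unequal in size, so the values below describe that choice and no test was made of them. The 5 arrays, 1 for each time, held total RNA of bone-marrow-derived macrophages from BalbC mice, differentiated in culture with human CSF-1, a macrophage growth factor. The 0 h culture had no LPS. The others had been in LPS of S. minnesota, a bacterial outer-membrane component, at 10 ug/ml for 0.5, 2, 7 or 21 h. All 5 arrays carried RNA of day 17.5 C57BL6/J whole embryos as the common reference in the other channel. No culture without LPS was measured after 0 h, so LPS and time in culture cannot be told apart. The labels do not say how many mice each culture came from, and with 1 array per time no difference could be set against replicates and no p-value is given.

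Abcb1a encodes P-glycoprotein, a pump of the ATP-binding cassette (ABC) family that uses ATP to move hydrophobic drugs, steroids and other lipophilic molecules out through the plasma membrane. In mice its work is shared with the product of a closely related gene, Abcb1b, and a further relative next to them on the chromosome, Abcb4, encodes the phospholipid floppase of the bile canaliculus. P-glycoprotein is best known in the capillary endothelium of the brain and the gut lining, where it limits the entry of drugs, and it is also found in haematopoietic cells. No probe was assigned to Abcb1b or Abcb4. Whether their transcripts bound the Abcb1a probes was not tested, and the Abcb1a values are uncertain to that extent.

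The 250 bases before the RefSeq start of Abcb1a are shown because they place the gene on the genome. They lie at chr5:8566841-8567090 on the + strand of GRCm38.p6, just upstream of the first base of the gene record. Whether macrophages start Abcb1a transcripts there was not tested.

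Abcb1a: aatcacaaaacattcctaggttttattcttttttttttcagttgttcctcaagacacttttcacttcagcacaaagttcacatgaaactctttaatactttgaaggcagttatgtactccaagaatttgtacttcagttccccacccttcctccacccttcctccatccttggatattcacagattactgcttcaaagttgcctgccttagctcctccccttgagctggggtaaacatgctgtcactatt

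This window held 40.4% G and C, against a median of 52.4% over 32851 windows of the same kind. It was searched on both strands for 6 motifs, and no capitals appear because none of them matched. The motifs were AP-1 (TGANTCA), which is in 6.75% of all windows, the NF-kappaB site (4.11%), the interferon response element (2.98%), a heat shock element (GAANNTTC, 6.69%), a GC box (GGGCGG, 32.7%) and a CCAAT box (CCAAT, 33.8%). That says only that these letters are not in this window.

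The values are deposited log ratios of macrophage RNA to embryo RNA, each array centred on its median over 18391 probes with a value on every array. No source used here gives the base of the logarithm, so differences are in units of the log ratio: 1 unit would mean 2-fold for base 2 and 10-fold for base 10. The direction is unstated too. It is likely macrophage over embryo, because the macrophage-lineage list had the higher median on every array (0.01 against -0.74 for the embryonic-tissue list at 0 h). Were it embryo over macrophage, all directions below would turn. On the 0 h array 3 of the 9 measured macrophage markers, Ctss (1.76), Lyz2 (1.18) and Fcgr1 (1.16), stood far above the embryo, while Cd68 was at -0.15 and Tyrobp at -0.10, and Csf1r, Adgre1 and Itgam were not measured. Error could be judged only from how far 2 probes of a gene differed in their change from 0 h, over 3034 genes. The SD per probe was 0.27, 0.38, 0.23 and 0.23 units in order of time, and a change is called past 2 SD when it exceeds 2 times that spread. It covers spots and probes, not cultures or animals. This spread of a single probe was applied unchanged to gene means, and it is too wide for genes with several probes.

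The 2 Abcb1a probes gave like ratios on each of the LPS arrays and unlike ratios on the 0 h array. Probe 8070 had centred log ratios of 0.08 before LPS and 0.0048, 0.79, 0.57 and 0.43 after 0.5, 2, 7 and 21 h. Its 2 earliest values were the low ones and its 3 later values the high ones, with the highest at 2 h. Probe 8580 had centred log ratios of -1.46 before LPS and 0.26, 0.38, 0.69 and 0.51 after the same times. Its 0 h value stood alone, below the embryo reference, and its highest value was at 7 h. The gene mean of both probes therefore went from -0.69 at 0 h to 0.13, 0.59, 0.63 and 0.47 on the later arrays. In RNA of a whole culture, fewer cells with the transcript and less transcript per cell cannot be told apart.

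**Figure D1:**
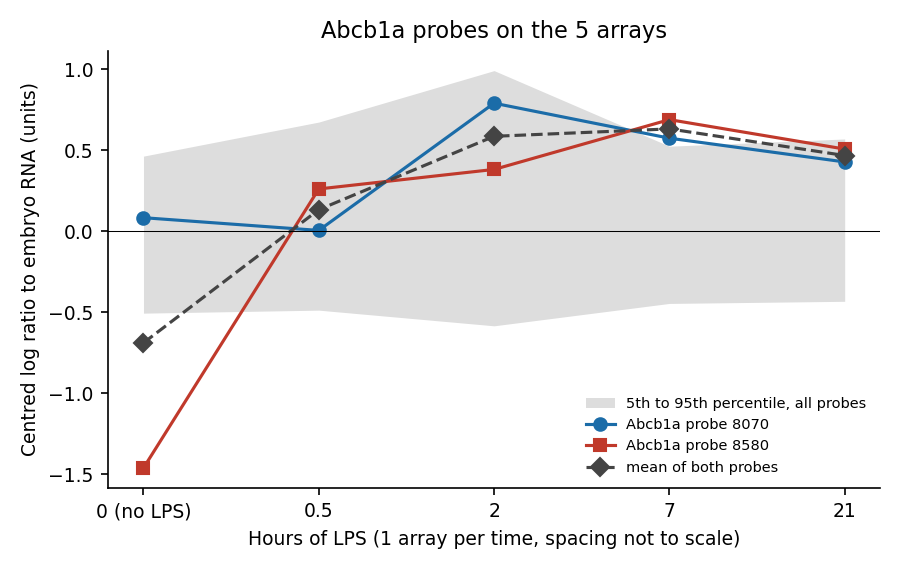
Centred log ratio to embryo RNA (units) of the 2 Abcb1a probes and their mean on the 5 arrays (1 array per time, the times spaced evenly), with the 5th to 95th percentile of all probes in grey. The probes lie close together on the arrays with LPS, and probe 8580 lies far below probe 8070 at 0 h (-1.46 against 0.08).

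Set among all 18391 probes, probe 8580 had the 85th lowest ratio at 0 h, while probe 8070 lay at percentile 65.4. On the 0.5 h array probe 8580 was at percentile 82.2 and probe 8070 at 50.7. At 2 h the order was turned, with probe 8070 at percentile 92.6 and probe 8580 at 80.8. At 7 h both were among the highest ratios of the array, with probe 8580 at percentile 97.9 and probe 8070 at 96.2, and at 21 h they were at 93.3 and 90.7. By rank, then, the Abcb1a ratio lay high among the probes of the array from 7 h on with either probe. The position before LPS depended on which probe was read.

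The gap between the Abcb1a probes was unusually large on the 0 h array. Probe 8070 was 1.55 units above probe 8580 at 0 h, the 9th largest gap among 1867 genes with exactly 2 probes, whose median gap was 0.19 units. On the later arrays the gap was 0.26, 0.41, 0.11 and 0.08 units in order of time, against medians of 0.23, 0.33, 0.22 and 0.20. Gaps at least that large were found for 46.4%, 42.5%, 71.2% and 78.1% of these genes, so on the LPS arrays the Abcb1a probes differed no more than probe pairs commonly did. In the change from 0 h the gap between them was 1.80 units at 0.5 h, the 15th largest of the 1867 genes, and 1.14 at 2 h, the 102nd. At 7 h it was 1.66 units, the largest, and at 21 h 1.63 units, the second largest. The gene was chosen for unequal changes of its probes, so these ranks describe that choice. The gap at 0 h was 1.49 to 1.69 units when the arrays were scaled by quantile normalization, by cyclic loess or by removing a running median along the probe numbers.

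**Figure D2:**
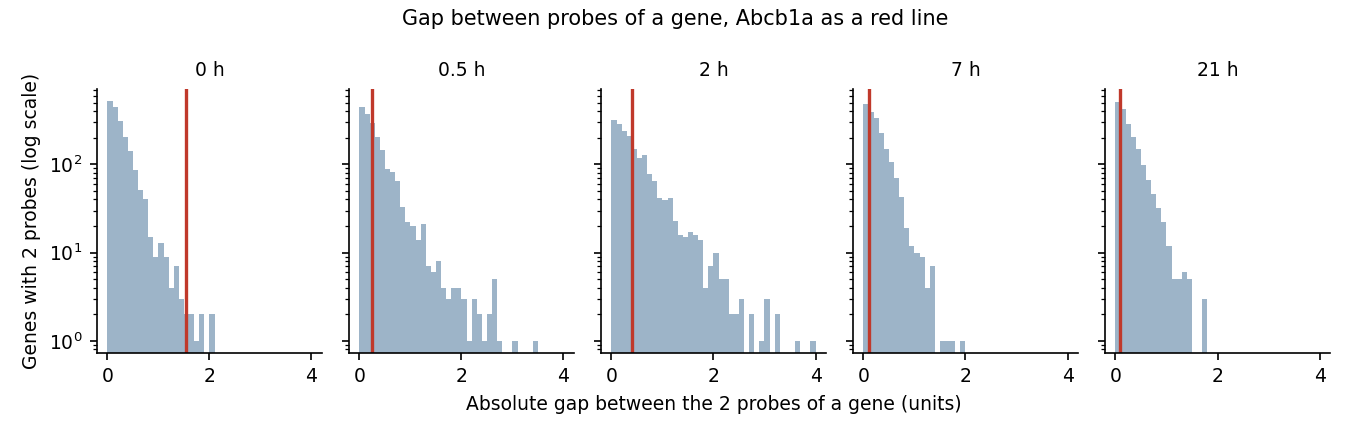
Histograms of the absolute gap between the 2 probes of a gene (units) over 1867 genes, 1 panel per array, with the number of genes on a log axis and the Abcb1a gap as a red line. The line lies in the far tail at 0 h (1.55 units) and in the bulk of the genes on the other arrays.

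A probe that was low on the 0 h array alone was rare. Only 7 of 18391 probes were at least 1 unit lower at 0 h than on every other array, and probe 8580, lower by 1.72 units or more, was the second most extreme of them. The others with a gene name, picked after their values were seen, were Phactr4, Plpp7 and Tcea1. Phactr4 and Plpp7 each rest on 1 probe. Among the 1867 genes with 2 probes Abcb1a was the only one with such a probe, which also describes the choice of the gene. Probe 8580 had no low neighbours: the 39 measured probes within 20 numbers of it ran from -0.46 to 0.44 at 0 h, with a median of -0.01. Spot intensities were not used here, so whether the 0 h spot was dim or faulty was not tested.

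Read as a gene mean against 0 h, Abcb1a was among the largest increases of the series. It was higher by 0.82, 1.28, 1.32 and 1.16 units in order of time, which placed it 184th, 126th, 8th and 11th of 8692 genes. Increases of at least 1 unit were shown by 1.47%, 2.72%, 0.276% and 0.253% of all genes, and Abcb1a was among them at the last 3 times. At 7 h it stood between Ccrl2 (1.36 units), a receptor gene, and the chemokine gene Cxcl10 (1.28). At 21 h it stood between the acute-phase gene Saa3 (1.29) and Dscc1 (1.14), of the sister-chromatid cohesion machinery. Quantile normalization moved the numbers behind these shares from 128, 236, 24 and 22 genes to 41, 72, 50 and 49. Abcb1a was 1 of 5 genes, or 0.0575%, that were at least 1 unit higher at 2, 7 and 21 h alike. Removing the running median ended this, with 0.94 units at 2 h and 0.90 at 21 h. Under the other 4 scalings its rank ran from 6th to 17th at 7 h and from 11th to 29th at 21 h. These positions all use the 0 h array, and they describe the choice of the gene.

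The same changes read probe by probe were far apart. Probe 8580 was higher than at 0 h by 1.72, 1.84, 2.15 and 1.97 units in order of time, each past 2 SD, and its changes at 7 and 21 h were the second and the third largest of all 18391 probes. Probe 8070 changed by -0.079, 0.71, 0.49 and 0.34 units. Of these only the 7 h value passed 2 SD, by a narrow margin (0.49 against 0.46 units), with the 2 h value just inside (0.71 against 0.75). The 7 h value also passed with quantile normalization (0.63 against 0.55) but not in the other 3 scalings: 0.41 against 0.46 without centring, 0.44 against 0.46 with cyclic loess and 0.35 against 0.43 with the running median removed. By size the probe 8070 changes were ranked 1107th at 2 h, 800th at 7 h and 2263rd at 21 h. Probes near probe 8070 by number were also a little higher than at 0 h: the 37 measured within 20 numbers had median changes of 0.29 units at 2 h, 0.14 at 7 h and 0.22 at 21 h. With the running median along the numbers removed, probe 8070 changed by 0.36, 0.35 and 0.11 units at those times. The part of spot position in these values was not tested further, nor whether the probe numbers follow it.

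With the 0.5 h array as baseline in place of the 0 h array, both probes were higher at the later times by modest amounts. Probe 8070 was higher by 0.79 units at 2 h, 0.57 at 7 h and 0.42 at 21 h. Probe 8580 was higher by 0.12, 0.43 and 0.25 units, so all 6 differences were upward. The gene mean was higher by 0.45 units at 2 h, 0.50 at 7 h and 0.33 at 21 h, within 2 SD each time (0.65, 0.68 and 0.65 units on this baseline). This limit is that of a single probe and is wide for a mean of both probes. Changes above 2 SD were shown by 3.76%, 0.805% and 0.84% of genes, and Abcb1a ranked 552nd, 176th and 536th. Quantile normalization put its 7 h value at 0.70 units, past the 2 SD of that setting (0.63), and turned probe 8580 at 2 h to -0.02 units. The running median also turned that value, to -0.08.

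**Figure D3:**
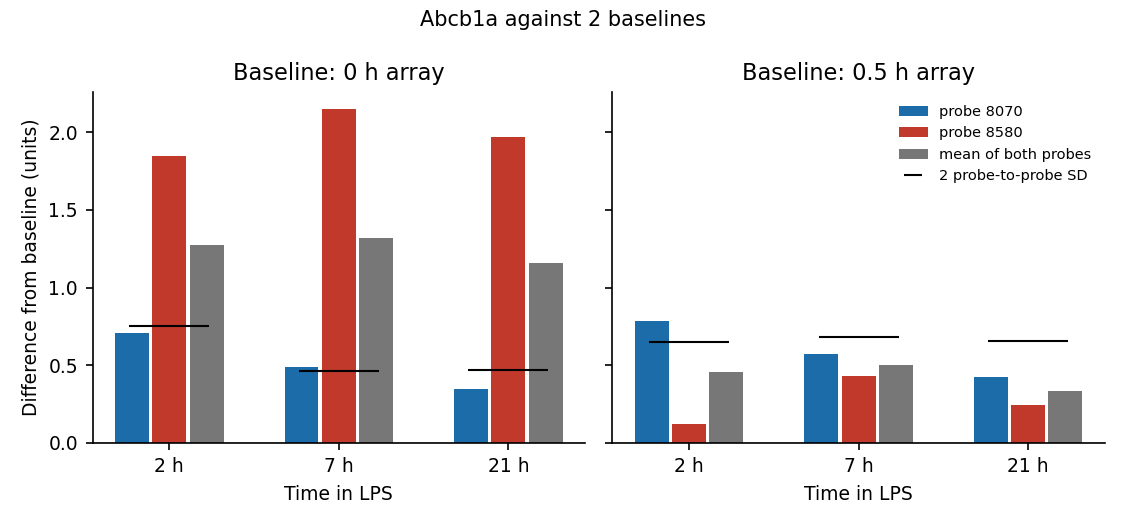
Differences of the 2, 7 and 21 h arrays from the 0 h array (left) and from the 0.5 h array (right), in units of the log ratio, for each Abcb1a probe and their mean as bars starting at 0, with black marks at 2 probe-to-probe SD. Probe 8580 reaches 2.15 units on the left and at most 0.43 on the right.

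From 2 h on the gene mean moved little. It differed by 0.05 units between 2 and 7 h, with probe 8070 at -0.22 and probe 8580 at 0.31, and by -0.12 units between 2 and 21 h. From 7 to 21 h both probes were lower, by -0.15 and -0.18 units, and the mean of -0.16 was within 2 SD (0.33). The order of the gene mean over the arrays was 0 h, 0.5 h, 21 h, 2 h and 7 h from lowest to highest. The neighbours 0.5 h and 21 h, 21 h and 2 h, and 2 h and 7 h did not differ beyond 2 SD. Between 0.5 h and 21 h the difference was 0.33 against 0.65 units, and between 0 h and 0.5 h it was 0.82 against 0.55.

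Genes were ranked by likeness to Abcb1a with the Euclidean distance over the 4 changes from 0 h, which share the 0 h array. The 6 nearest gene means were Tmem45a (distance 0.44 units), Dscc1 (0.45), Epgn (0.49), Slamf9 (0.56), Serpinb2 (0.61) and Mapre2 (0.64), each measured by 1 probe. Slamf9, a cell-surface receptor gene, had changes of 0.82, 0.80, 1.54 and 1.36 units in order of time. Serpinb2, which encodes a plasminogen activator inhibitor, had changes of 0.70, 0.70, 1.23 and 1.03 units. Tmem45a, the nearest, differed in its ratios themselves: it was at -1.68 before LPS and still at -0.29 at 21 h, below the embryo where Abcb1a was above.

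The likeness of single probes gave other names. Nearest to probe 8070 were probes of Mrpl48 (distance 0.07 units), Rab11fip1 (0.07), Kcne1 (0.13) and Cotl1 (0.14), the last encoding an actin-binding protein. Cotl1 had changes of -0.04, 0.60, 0.55 and 0.30 units, a course like that of probe 8070 from a higher start (0.66 at 0 h). Nearest to probe 8580 were 2 probes without a single gene (0.73 and 0.77), then probes of Tcea1 (0.82), a transcription elongation factor gene, and Plpp7 (0.84). The 2 Abcb1a probes were 3.15 units apart on this measure. Of the 18390 other probes, 18361 were nearer to probe 8070 than its partner was, and 1351 were nearer to probe 8580.

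In the ABC family, 12 of 53 listed genes were measured on all arrays, and 1 more, the sterol transporter gene Abcg8, had a probe that lacked a value at 21 h. Above 2 SD were 1, 2, 3 and 2 of the 12 in order of time, and none was below. Abcb1a was each time among them as a gene mean, but its probe 8070 alone passed only at 7 h. On the 0.5 h baseline 1 of the 12 was above at 2 h, where 3.76% of all genes were, and 1 was below at each of 7 and 21 h. Abcb1a was not among these members. The share of all genes below 2 SD on that baseline was not counted. Falls of at least 1 unit from 0.5 h outnumbered rises over all genes (264 against 13 at 7 h, 233 against 14 at 21 h). In changes from 0 h the share of all genes above 2 SD was 4.3%, 4.84%, 3.11% and 4.04%, and the share below was 0.357%, 0.23%, 3.35% and 2.25%. Leaving out Abcb1a, 0, 1, 2 and 1 of 11 were above, and the median change was -0.02, 0.02, 0.00 and 0.02 units, beside 0.01, 0.03, 0.00 and 0.01 for all genes. Without Abcb1a the family medians thus lay close to those of all genes.

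The other members above 2 SD were both of subfamily B, to which Abcb1a belongs. Abcb10, which encodes a transporter of the mitochondrial inner membrane, had centred log ratios of 0.03, 0.38, 2.76, 0.53 and 0.58 in order of time. Its 2 h value stood alone, 2.72 units above 0 h, and it was 0.50 and 0.55 units above at 7 and 21 h. Quantile normalization put the 2 h value at 1.82. Lone high values were most common on the 2 h array. There 1.34% of all probes were at least 1 unit above every other array, against 0.549% at 0.5 h and fewer at the other times. Its 7 h value passed 2 SD in 1 of the 4 other scalings and its 21 h value in 3. Tap2, a chain of the peptide transporter that loads MHC class I, had ratios of -0.18, -0.08, 0.07, 0.50 and 0.19, and was 0.67 units above 0 h at 7 h. Tap2 at 7 h passed 2 SD in all 4 other scalings. Abcb6, the remaining member of subfamily B, had changes from -0.15 to 0.08 units.

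Of 13 listed genes of drug export 4 were measured, and besides Abcb1a none passed 2 SD at any time. Abcc3, an exporter of organic anions and conjugates, had ratios from 0.05 to 0.22 on the 5 arrays and changes from -0.18 to -0.01 units. Abcc5, an exporter of cyclic nucleotides and anions, had changes from -0.05 to 0.04 units. Mvp, the gene of the major vault protein, was at most 0.19 units above 0 h, at 7 h. Small values of Abcc3, Abcc5 and Mvp changed sign with the scaling. Abcc1, Abcc2, Abcc4 and Abcg2, among the best known drug exporters, were not measured.

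Outside subfamily B, no measured member passed 2 SD in its change from 0 h. Abca8a, of the lipid-transporting subfamily A, was 0.33, 0.54, 0.24 and 0.40 units above 0 h. The ribosome-associated members Abce1, Abcf1 and Abcf3, which carry ATP-binding cassettes but no membrane domain, had changes from -0.19 to 0.00 units as gene means. Abcf2, of the same kind, was 0.54 units above 0 h at 0.5 h, just inside 2 SD, and -0.38 at 21 h. In 3 of the 4 other scalings its 0.5 h value was past 2 SD. Its ratio went from 0.65 at 0.5 h to -0.13 at 7 h and -0.27 at 21 h. It was thus the member below 2 SD at 7 and 21 h on the 0.5 h baseline. Abcd3, a peroxisomal fatty-acid transporter gene, had changes from -0.12 to 0.19 units.

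**Figure D4:**
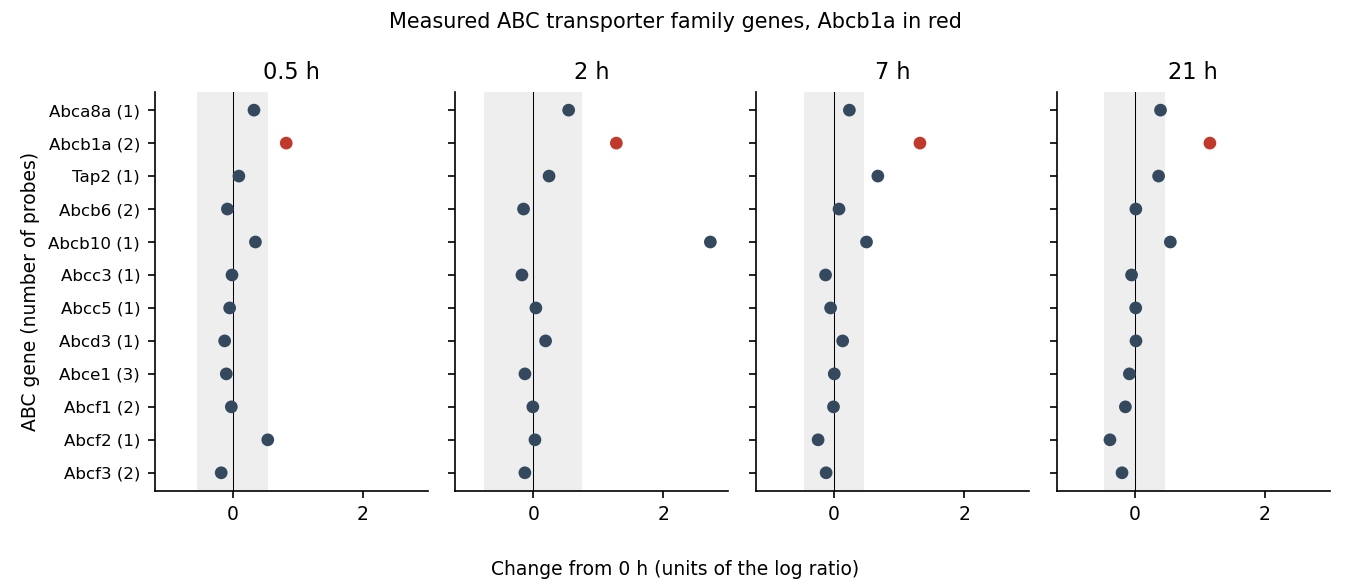
Change from 0 h (units of the log ratio) of the 12 measured ABC family genes at 0.5, 2, 7 and 21 h, 1 point per gene, with the number of probes in brackets, Abcb1a in red and the range within 2 probe-to-probe SD in grey. Abcb1a lies right of the grey range at each time, Abcb10 at 2, 7 and 21 h and Tap2 at 7 h.

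Of 32 listed genes known to act on Abcb1 transcription in other systems, 14 were measured. None of the 14 passed 2 SD at 0.5 or 2 h, where 4.3% and 4.84% of all genes were above, and 1 was above at each of 7 and 21 h, where 3.11% and 4.04% of all genes were. So few calls among 14 genes are about as many as these shares give. Nfya, a subunit of the CCAAT-binding factor, was 0.64 units above 0 h at 7 h, with its 2 probes at 0.55 and 0.74. Hif1a, of the hypoxia response, was 0.61 units above at 21 h, with 6 probes from -0.0020 to 0.84, and passed 2 SD in 3 of the 4 other scalings. Nr1i2, the xenobiotic receptor PXR, had no change past 2 SD, with 0.36 units at 21 h as its largest. The list medians were 0.11, 0.07, 0.10 and 0.05 units, beside 0.01, 0.03, 0.00 and 0.01 for all genes. Nfkb1, Rela, Trp53, Egr1 and Cebpb were not measured.

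Among xenobiotic-metabolizing enzymes, 32 of 51 listed genes were measured. Above 2 SD were 1, 3, 2 and 3 of them in order of time, where the shares of all genes were 4.3%, 4.84%, 3.11% and 4.04%. Below were 0, 1, 0 and 0, where those shares were 0.357%, 0.23%, 3.35% and 2.25%. Most genes lay within 2 SD in this list as on the whole array, and the list medians were 0.08, 0.06, 0.01 and 0.11 units. Ephx1, microsomal epoxide hydrolase, was at -1.02 units at 2 h, 0.90 at 7 h and 0.49 at 21 h. Cyp2j6, an epoxygenase gene, was 1.46 units above at 2 h and 0.75 at 21 h. Cyp2e1, the ethanol-inducible P450, was 2.31 units above at 2 h, 0.54 at 7 h and 0.61 at 21 h. The 7 h value of Cyp2e1 and the 21 h value of Ephx1 passed 2 SD in 1 of the 4 other scalings each, and the 21 h value of Cyp2e1 in 2.

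Markers of other cells that could be in such a culture, several of which express P-glycoprotein, were read in the same way. Of 14 endothelial markers 11 were measured, and their median ratio was -0.06, -0.05, 0.00, 0.02 and -0.01 in order of time. Cdh5, VE-cadherin, was above 2 SD at 2 h (0.87 units) and the other 10 were not. The Cdh5 value passed 2 SD in 1 of the 4 other scalings, and was 0.25 units with quantile normalization and 0.31 with cyclic loess. The largest endothelial changes at 7 or 21 h were Emcn (0.43 units at 21 h), Cdh5 (0.29 at 21 h) and Eng (0.27 at 7 h), all within 2 SD. Of 16 lymphocyte and NK-cell markers 7 were measured, with median changes of 0.16, 0.22, 0.08 and 0.21 units, above the medians of all genes (0.01, 0.03, 0.00 and 0.01). Of these 7, above 2 SD were 1, 2, 1 and 1 in order of time, against 4.3%, 4.84%, 3.11% and 4.04% of all genes, and 1 was below at 7 h, against 3.35%. Cd79b, of the B-cell receptor, was 0.61 units above 0 h at 7 h, and Cd3d, of the T-cell receptor complex, 0.48 at 21 h. The granzyme gene Gzmb was 1.29 units above at 0.5 h and at -0.53 at 7 h. At 2 h the markers above 2 SD were Cd3d (0.94 units) and Gzma (1.19), a further granzyme gene picked after its value was seen. The 2 h value of Cd3d passed 2 SD in 2 of the 4 other scalings. No one of the 4 other scalings put the 21 h value of Cd3d past 2 SD, and 3 of them put the 7 h value of Gzmb past it. Of 10 haematopoietic progenitor markers 5 were measured and all lay within 2 SD, with Meis1 (-0.28 units at 7 h), Gata2 (-0.20 at 7 h) and Elane (0.18 at 21 h) the largest at the late times. Ratios of these lists are to a whole embryo, and the part of such cells in the Abcb1a values was not tested.

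The measured genes next to Abcb1a in the RefSeq order of chromosome 5 were, on one side, Sri, Steap1 and Gtpbp10 and, on the other, past Abcb1b and Abcb4, Crot, Dmtf1 and Grm3. Sri, which encodes the calcium-binding protein sorcin, Steap1, Gtpbp10 and Dmtf1 stayed within 2 SD at every time, with changes from -0.26 to 0.24 units. Crot, a peroxisomal carnitine acyltransferase gene, was 0.56 units above 0 h at 21 h, but its 2 probes disagreed (0.01 and 1.12) and it passed 2 SD in 3 of the 4 other scalings. Grm3, a glutamate receptor gene, was at -0.48 units at 7 h, past 2 SD here and in 3 of the 4 other scalings. Crot was the highest of these 6 neighbours at every time, with changes of 0.51, 0.26, 0.18 and 0.56 units in order of time. The Abcb1a gene mean was above Crot each time, at 0.82, 1.28, 1.32 and 1.16 units. Probe 8070 was above Crot at 2 and 7 h (0.71 and 0.49 units) and below it at 0.5 and 21 h (-0.079 and 0.34).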

How the data were processed

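For each probe and array the authors deposited a log ratio, from -3.01 to 4.28 units; no source used here gives the background correction, normalization, base or direction. Arrays had 19147 to 19621 values, with medians of 0.07, 0.13, 0.12, -0.01 and 0.01 in order of time, and correlated at 0.44 to 0.84. Signal over background was not used, so dim spots were not set apart. Precision is limited by having 1 array per time. Of 19828 probes, 14759 had 1 gene in the platform annotation, 170 several and 4899 none listed; gene IDs of 14628 were in the RefSeq table, which changed 0 symbols. Arrays were centred on the median of 18391 probes with all values, and 13876 named probes were averaged into 8692 genes. Changes are a time minus 0 h. The SD of the difference between a gene's first 2 probes, over the square root of 2, is the probe SD. Members, lists and the naming rule (all drug exporters, ABC genes past 2 SD, 3 largest late changes per list, chromosome, rank and pattern neighbours) were chosen with earlier results of these data known. Calculations were checked on simulated data. Python 3.11.15, numpy 2.4.6, pandas 2.3.3, R 4.3.3 and limma 3.58.1 were used. Alternatives were other scalings, baselines, thresholds and filters.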

Additional observations from a re-analysis of the deposited data

How the results depend on the processing

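No paired analysis was possible because each time has 1 array. The Abcb1a changes at 0.5, 2, 7 and 21 h (0.82, 1.28, 1.32 and 1.16 units) moved by less than 1 probe SD without centring, with quantile normalization, cyclic loess, or with missing values judged on the compared pair of arrays only. With the running median removed the 21 h value was 0.90, and the 2 h value 0.94, both under 1 unit. Probe 8070 alone gave -0.079, 0.71, 0.49 and 0.34, and probe 8580 alone 1.72, 1.84, 2.15 and 1.97. At 2, 7 and 21 h the 0.5 h baseline gave 0.45, 0.50 and 0.33, and averaging the 0 h with the 0.5 h array 0.86, 0.91 and 0.75. Leaving out the 0 h array thus ended every 1-unit call of Abcb1a; the cause was not tested.

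Genes at least 1 unit higher or lower numbered 130, 244, 35 and 27 in order of time (128, 236, 24 and 22 higher). With quantile normalization they were 54, 91, 102 and 85 (41, 72, 50 and 49 higher), and with probes counted singly 204, 458, 65 and 50. A threshold of 1.5 units, stricter by construction, left 55, 83, 5 and 5. Cyclic loess gave 118 at 2 h (95 higher), 41 at 7 h (20 higher) and 29 at 21 h (16 higher), and no centring 39 at 7 h (17 higher). The 0.5 h baseline, added after the data were seen, gave 277 at 7 h (13 higher) and 247 at 21 h (14 higher), and 213 at 2 h (149 higher). ABC genes past 2 SD numbered 1, 2, 3 and 2. At 0.5 h they were 2 without centring, with quantile normalization and with the running median removed, and at 21 h 1 with cyclic loess. On the 0.5 h baseline they were 1 at each of 2, 7 and 21 h, above at 2 h and below at 7 and 21 h, and Abcb1a was not among them. Of all genes 3.76% were above 2 SD at 2 h on that baseline, and the share below was not counted. Leaving out Abcb1a, also added later, gave 0, 1, 2 and 1.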
